A study of Mus musculus with 4 samples.

Results

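The 10 genes described here act in MHC class I antigen presentation. They were chosen by symbol, and all 10 were among the 24131 genes with at least 1 UMI (unique molecular identifier, a count of 1 captured transcript) in a cell kept for analysis (600 to 6000 genes detected and at most 5% mitochondrial UMIs). H2-K1, H2-D1 and H2-Q7 encode heavy chains, B2m the light chain, Psmb8 and Psmb9 inducible proteasome subunits, Tap1 and Tap2 the peptide transporter, Tapbp the loading factor tapasin, and Nlrc5 a transcriptional activator of class I genes.

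The study profiled CD45+ immune cells sorted from livers of female C57BL/6 mice by droplet single-cell RNA sequencing of transcript 5′ ends, in a model of hepatocellular carcinoma. The model combined the carcinogen diethylnitrosamine (DEN), injected at 25 mg/kg on day 14 of life, with a choline-deficient high-fat diet (CDHFD) from weaning on day 21. The young WT library came from untreated wild-type mice of about 8 weeks. The DEN-CDHFD WT, DEN-CDHFD miR-146a-/- and DEN-CDHFD DKO libraries came from treated mice of 36 weeks that were wild-type, lacked the microRNA miR-146a, or lacked both miR-146a and the chemokine gene Ccl5. Each condition was 1 library, the number of mice in it is not given in the sources used here, and no difference below has a replicate check. Age, DEN and diet differed together between young WT and DEN-CDHFD WT and cannot be told apart.

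Of 39121 cells, 36286 were kept: 10283 young WT, 8329 DEN-CDHFD WT, 7824 DEN-CDHFD miR-146a-/- and 9850 DEN-CDHFD DKO. They held 83882711, 84158257, 79464882 and 96747482 UMIs, with medians of 6782, 8210, 7910 and 7558 per cell. The level of Ccl5 over all kept cells was 6174 CPM (the usual depth-scaled count, UMIs of a gene over all UMIs of the same cells) in young WT, 12544 in DEN-CDHFD WT, 12496 in DEN-CDHFD miR-146a-/- and 65.4 in DEN-CDHFD DKO. Ccl5 was thus lowest in the library labelled as lacking it, whereas the miR-146a label could not be checked in this way because the gene has no entry in the matrix.

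Class I molecules carry peptides from proteins made inside a cell to its surface, where CD8 T cells read them and NK cells register their absence. Peptides are cut by the proteasome, moved into the endoplasmic reticulum by the TAP transporter and loaded onto heavy chain and B2m with the help of tapasin. Interferons, above all interferon gamma, raise many of these genes, and in the liver presentation by immune and parenchymal cells shapes the response to infected and transformed hepatocytes.

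Cells were assigned to 18 classes by UMIs of lineage markers, without use of the 10 genes. A total of 20142 cells passed 1 gate, 16129 passed none and 15 passed several. Class names below stand for these marker gates, so that each class is only "like" the cell it is named after. A total of 11 classes had at least 50 cells in every library: PD-1+ CD8 T, naive CD8 T, other CD8 T, conventional CD4 T, NK, ILC1, B, patrolling monocyte, cDC1, cDC2 and pDC. Among markers that no gate used, summed over the 4 libraries, Prf1 was highest in the NK class, F13a1 in classical monocytes, Adgre1 and Cd5l in C1q macrophages, and Cd300e, Spn and Ear2 in patrolling monocytes. Nr4a1, also listed for patrolling monocytes, did not set them apart in DEN-CDHFD WT, where it was 1017 CPM there and 1030 CPM in NK cells. Chil3, listed for classical monocytes, was highest in neutrophils, and Sirpa, listed for cDC2, was highest in C1q macrophages. Of the Kupffer cell markers, also summed over the 4 libraries, Clec4f at 26.2 CPM and Vsig4 at 20.9 CPM were highest in C1q macrophages. Timd4 at 47.4 CPM was highest in cDC2 and Marco at 3.24 CPM in patrolling monocytes. These sums do not give the level of a marker in each library and are not read here as traits of a class.

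The heavy chain genes lie on chromosome 17, as do Tap1, Tap2, Tapbp, Psmb8 and Psmb9, whereas B2m lies at chr2:122147687-122153082 and Nlrc5 at chr8:94434335-94527272 (RefSeq, GRCm38.p6). Psmb9, Tap1, Psmb8 and Tap2 follow each other within chr17:34182030-34216321. Promoters of 8 of the 10 genes were in the RefSeq table used (build GRCm38.p6); Tap2 and Nlrc5 were not. In the 250 bases before a listed transcript start, searched on both strands, H2-K1, H2-D1 and H2-Q7 each held GGGATTCCC, a kB-like motif found in 0.301% of 32851 promoters, and GTGAAAC, an interferon-response-like motif found in 2.12%. The stretches from the first motif to the second are shown because H2-K1 varied together with H2-Q7 and with H2-D1 across the libraries. They lie at chr17:34000432-34000457 (minus strand, H2-K1), chr17:35262924-35262949 (plus strand, H2-D1) and chr17:35439023-35439047 (plus strand, H2-Q7). That of H2-K1 is upstream of the transcript start at position 34000347 but inside the RefSeq gene, which spans chr17:33996012-34000619, and that of H2-D1 lies in an untranslated region of a longer GENCODE transcript, chr17:35262730-35263113. The H2-Q7 stretch is outside both annotations of the gene. They are written 5′ to 3′, with capitals for GGGATTCCC and for GTTTCAC, the reverse complement of GTGAAAC.
H2-K1: GGGATTCCCcatctccacaGTTTCAC
H2-D1: GGGATTCCCcatctcctcaGTTTCAC
H2-Q7: GGGATTCCCatctccccaGTTTCAC
The motifs lay in the same order in all 3 stretches. Of the other motifs searched, GAAANNGAA was in the B2m promoter (7.13% of all promoters), TTCNNNGAA in that of Psmb8 (7.02%) and TGACGC in those of H2-K1 and H2-D1 (6.12%). The motif letters were chosen after these promoters had been read, so the shares over all promoters do not measure how unusual the matches are. The 3 heavy chain stretches are nearly alike and do not count as separate finds. These matches describe letters only, and their part in how the genes varied across the libraries was not tested.

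Levels by class come first. For H2-K1, a classical heavy chain that presents peptides to CD8 T cells, the mean over the 4 libraries ran from 5003 CPM in ILC1 to 1268 CPM in cDC1, a 3.94-fold range. ILC1 held 4648 CPM in young WT, 5118 in DEN-CDHFD WT, 5027 in DEN-CDHFD miR-146a-/- and 5219 in DEN-CDHFD DKO, and cDC1 held 1274, 1351, 1257 and 1190 CPM. The range of ILC1 over the libraries did not overlap that of other CD8 T cells, the next class, and 5 of 10 neighbouring pairs of classes in the order overlapped. T cells and NK cells followed ILC1, then pDC and B cells, and the patrolling monocytes and conventional dendritic cells came last. For H2-D1, the other classical heavy chain, the order ran from 4693 CPM in ILC1 to 2045 CPM in cDC1, a 2.30-fold range with 7 of 10 neighbours overlapping. Patrolling monocytes, near the end for H2-K1 at 1696 CPM, held 3373 CPM of H2-D1, close to conventional CD4 T cells at 3374 CPM.

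H2-Q7, a nonclassical heavy chain of the Qa-2 group, had the widest range of the 10 genes across the 11 classes, 8.22-fold, from 1108 CPM in other CD8 T cells to 135 CPM in patrolling monocytes. It split the classes into T cells, NK, ILC1 and pDC at mean levels of 701 CPM or more, B cells at 370 CPM, and cDC1, cDC2 and patrolling monocytes at 147 CPM or less. These 3 blocks did not overlap in any library. As a share of the UMIs of the 3 heavy chain genes, H2-Q7 took 8.65% to 12.7% in the T-cell, NK, ILC1 and pDC classes with 50 cells in every library, and 2.12% (exact 95% binomial interval 1.94% to 2.31%) in patrolling monocytes of DEN-CDHFD miR-146a-/-. This last share is for that library only, and the level of H2-Q7 in patrolling monocytes ran from 81.5 to 197 CPM over the libraries. Among stretches of 50 bases in its annotated transcripts, 26.4% also occur in other genes, against 12.8% for H2-D1, 9.63% for H2-K1 and 0% for B2m. Reads can therefore be shared with near-identical genes and the level of H2-Q7 is uncertain.

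B2m, the light chain of every class I molecule, had the narrowest range of the 10, 2.03-fold from 3614 CPM in ILC1 to 1776 CPM in cDC1, and all 10 neighbouring pairs overlapped. Patrolling monocytes, low in H2-K1 and H2-Q7, stood second for B2m at 3334 CPM, and NK cells stood below conventional CD4 T cells, at 2717 and 3172 CPM.

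The immunoproteasome genes had another order. Psmb8, a catalytic subunit that replaces Psmb5, was highest in cDC1 at 1174 CPM and lowest in patrolling monocytes at 503 CPM, and all 10 neighbouring pairs overlapped. Psmb9, which replaces Psmb6, stood at 797 CPM in cDC1, where it was 787 CPM in young WT, 723 in DEN-CDHFD WT, 866 in DEN-CDHFD miR-146a-/- and 812 in DEN-CDHFD DKO. No other class of the 11 reached this range: PD-1+ CD8 T cells came next at 377 CPM, and patrolling monocytes were last at 171 CPM. Of the UMIs of Psmb9 and Psmb6 together, Psmb9 took 82.6%, 79.1%, 81.5% and 82.8% in cDC1 of the 4 libraries, and 52.3%, 57.9%, 52.8% and 54.9% in patrolling monocytes. The share of Psmb10, the remaining inducible subunit, with Psmb7 went the other way, at 55.4%, 52.4%, 59.5% and 52.9% in cDC1 against 71.9%, 76.8%, 74.5% and 74.8% in patrolling monocytes.

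**Figure D1:**
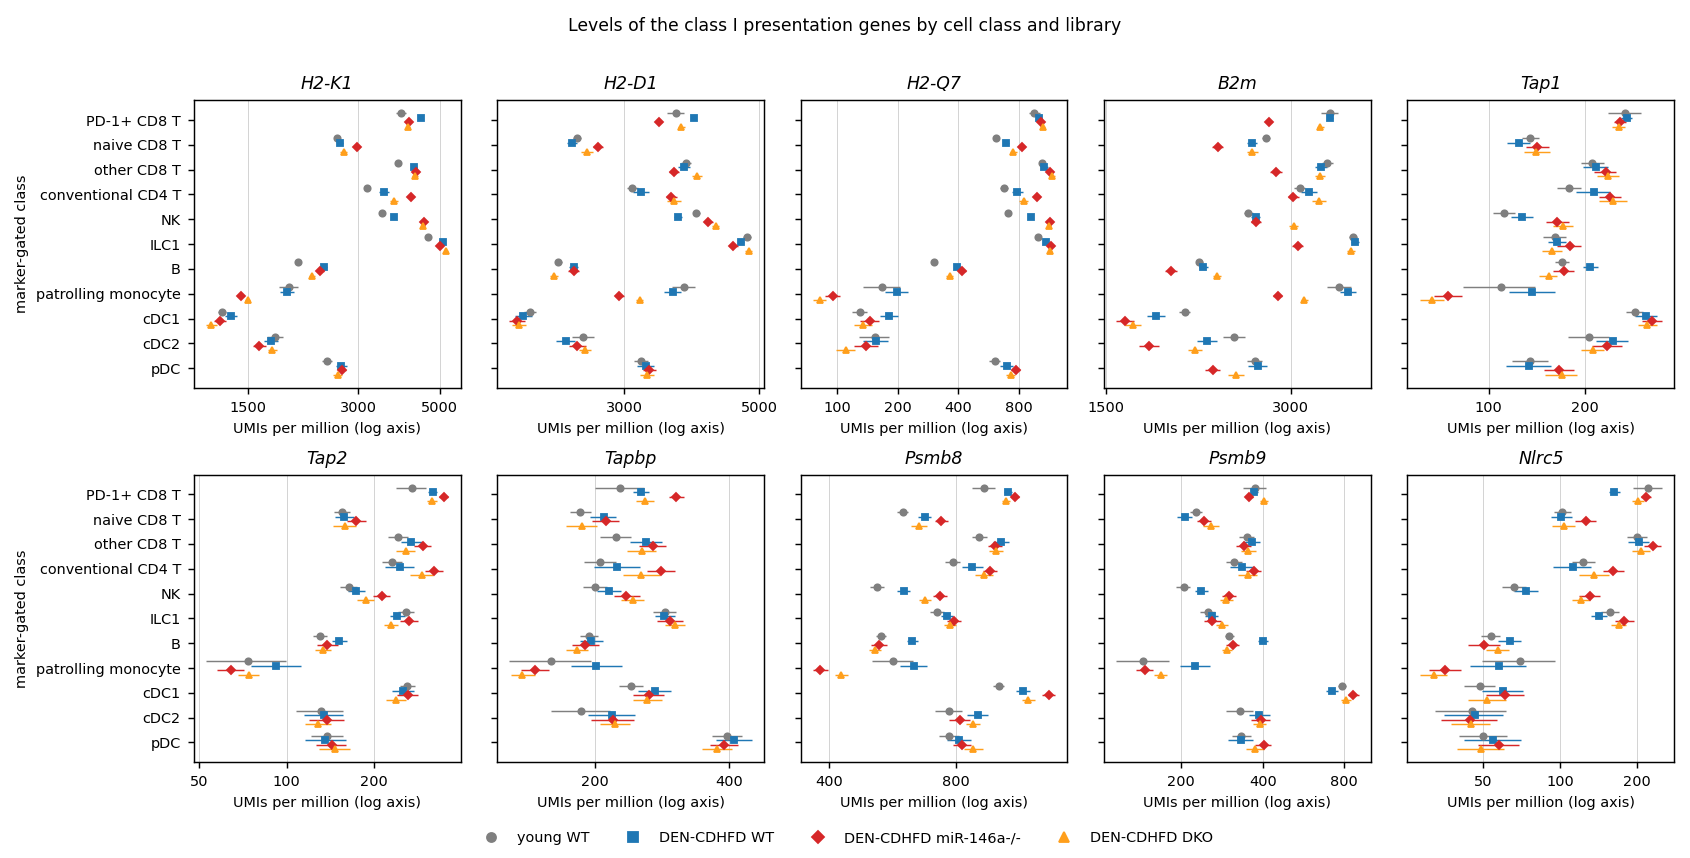
Level of each of the 10 genes (CPM, log axis) in the 11 marker-gated classes with at least 50 cells in every library; points are libraries and bars exact 95% Poisson intervals, which cover counting error only. H2-Q7 is lowest in cDC1, cDC2 and patrolling monocytes, and Psmb9 is highest in cDC1.

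Tap1 and Tap2 encode the chains of the peptide transporter. Tap1 was highest in cDC1 at 309 CPM, then in PD-1+ CD8 T cells at 262 CPM, and neither range overlapped the next. Tap2 was highest in PD-1+ CD8 T cells at 314 CPM. Both were lowest in patrolling monocytes, at 96.9 CPM for Tap1 and 75.9 CPM for Tap2. Tapbp, which holds the empty molecule at the transporter, was highest in pDC at 393 CPM, apart from every other class, and lowest in patrolling monocytes at 161 CPM. Nlrc5 ran from 211 CPM in other CD8 T cells to 45.0 CPM in cDC2, a 4.69-fold range. Its levels in NK cells, 97.8 CPM, lay above those of B cells, 56.0 CPM, without overlap, and below NK the neighbours overlapped.

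**Figure D2:**
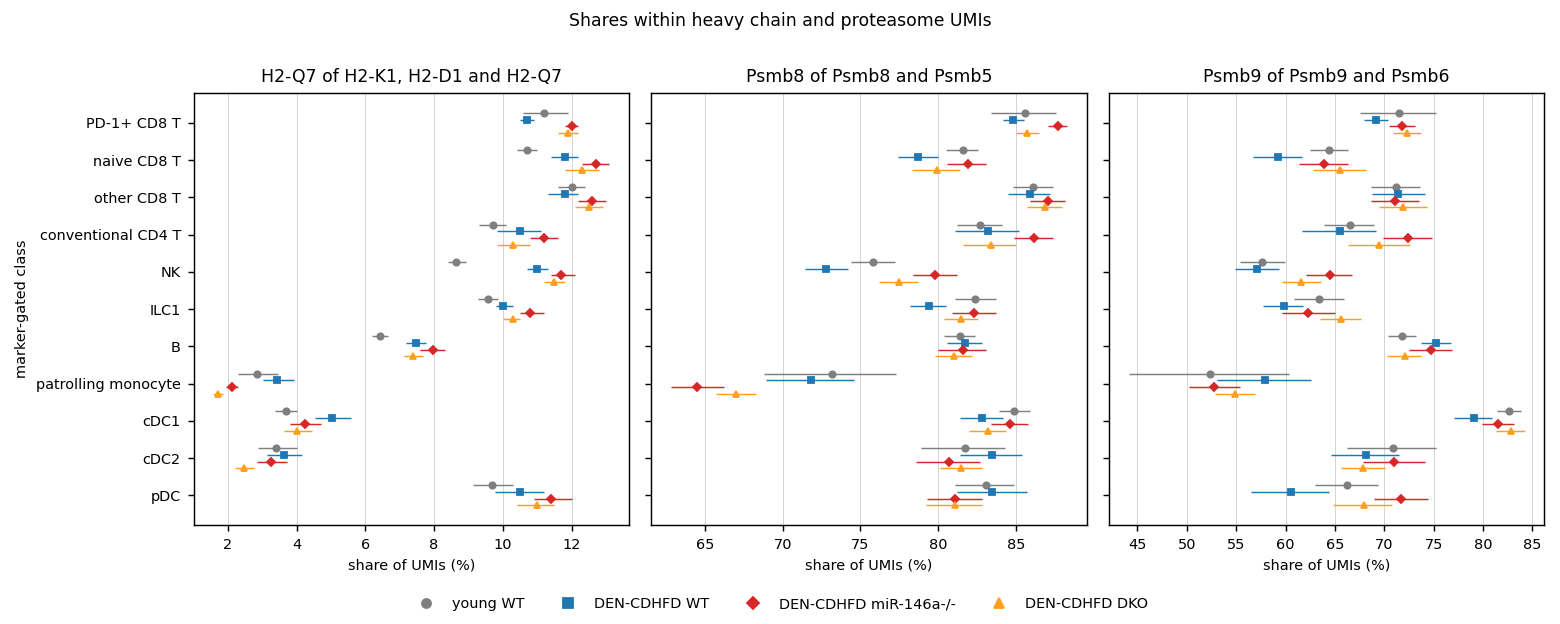
Shares of UMIs (%) by class and library, with exact 95% binomial intervals that cover counting error only: H2-Q7 among the 3 heavy chain genes, and Psmb8 and Psmb9 with the constitutive subunits they replace. The Psmb9 share is near 80% in cDC1 and 52.3% to 57.9% in patrolling monocytes.

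Treated and young wild-type mice were compared in the 12 classes with 50 cells in both libraries. A pair of gene and class was tested when the gene reached 50 CPM and 20 UMIs in 1 of the libraries, and called when the levels differed by 1.5-fold or more, with no test behind a call. Of 120 pairs of the 10 genes, 119 could be tested; Nlrc5 in cDC2 was too low. A single pair was called higher and 0 lower, with a median log2 ratio of 0.07, whereas of 42226 pairs over all genes 3.68% were called higher and 3.39% lower, with a median of 0.01. The share of calls among the 10 genes was thus below that of all genes.

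The called pair was Psmb9 in patrolling monocytes, which stood at 145 CPM (exact 95% Poisson interval 115 to 180) in young WT and 225 CPM (198 to 255) in DEN-CDHFD WT, a log2 ratio of 0.63 (counting interval 0.27 to 1.01). In this class 324 of 3602 genes (9.0%) were called higher, so 1 of 10 members was near the share of all genes. The call rested on 68 and 101 cells, and the ratio was 0.50 when no UMI of an excluded lineage was allowed and 0.50 without the 10% of cells with the most UMIs, 0.46 after thinning every cell to 2000 UMIs and 0.58 in cells with a UMI of the patrolling markers Cd300e or Spn. Below the limit, the ratio of H2-Q7 was 0.48 in cDC1 (0.70 after thinning), 0.39 in B cells and 0.38 in NK cells, and that of Nlrc5 was -0.44 in PD-1+ CD8 T cells, where it stood at 222 CPM in young WT and 163 CPM in DEN-CDHFD WT.

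The interferon response list, 15 genes used as a readout of interferon signalling, had 21 pairs higher and 11 lower of 99 tested. In cDC2, Isg15 rose from 67.6 to 329 CPM, and in patrolling monocytes from 39.3 to 209 CPM. In PD-1+ CD8 T cells, Ifit3 fell from 84.6 to 12.9 CPM. The levels of the class I genes moved less, and in cDC2 none of the 9 tested passed 1.5-fold, except Tapbp after thinning at 0.76, and their median log2 ratio was 0.04. The 18 further class I genes had 4 pairs higher and 0 lower of 163, the constitutive proteasome 2 higher and 0 lower of 120, the regulators 1 higher and 4 lower of 132, and the interferon genes 1 higher and 2 lower of 7.

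Mice without miR-146a were compared with wild-type mice, both treated, in 13 classes. Of 130 pairs, 129 could be tested and Nlrc5 in cDC2 could not. A single pair was called higher and 9 lower, with a median log2 ratio of 0.00 (2 higher and 8 lower with TMM factors, a scaling that trims extreme genes). Over all genes, 4.0% of 45345 pairs were called higher and 5.81% lower, also with a median of 0.00, so the members' share of lower calls, 6.98%, was near that of all genes. The calls were spread unevenly: 5 of the 9 lower calls were in patrolling monocytes, 3 in classical monocytes and 1 in C1q macrophages, and the higher call was in NK cells. The same 3 classes had the highest shares of lower calls over all genes, 9.95% in patrolling monocytes, 12.6% in classical monocytes and 8.89% in C1q macrophages, against 2.41% to 6.36% in the other 10 classes. Differences between classes were not tested.

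**Figure D3:**
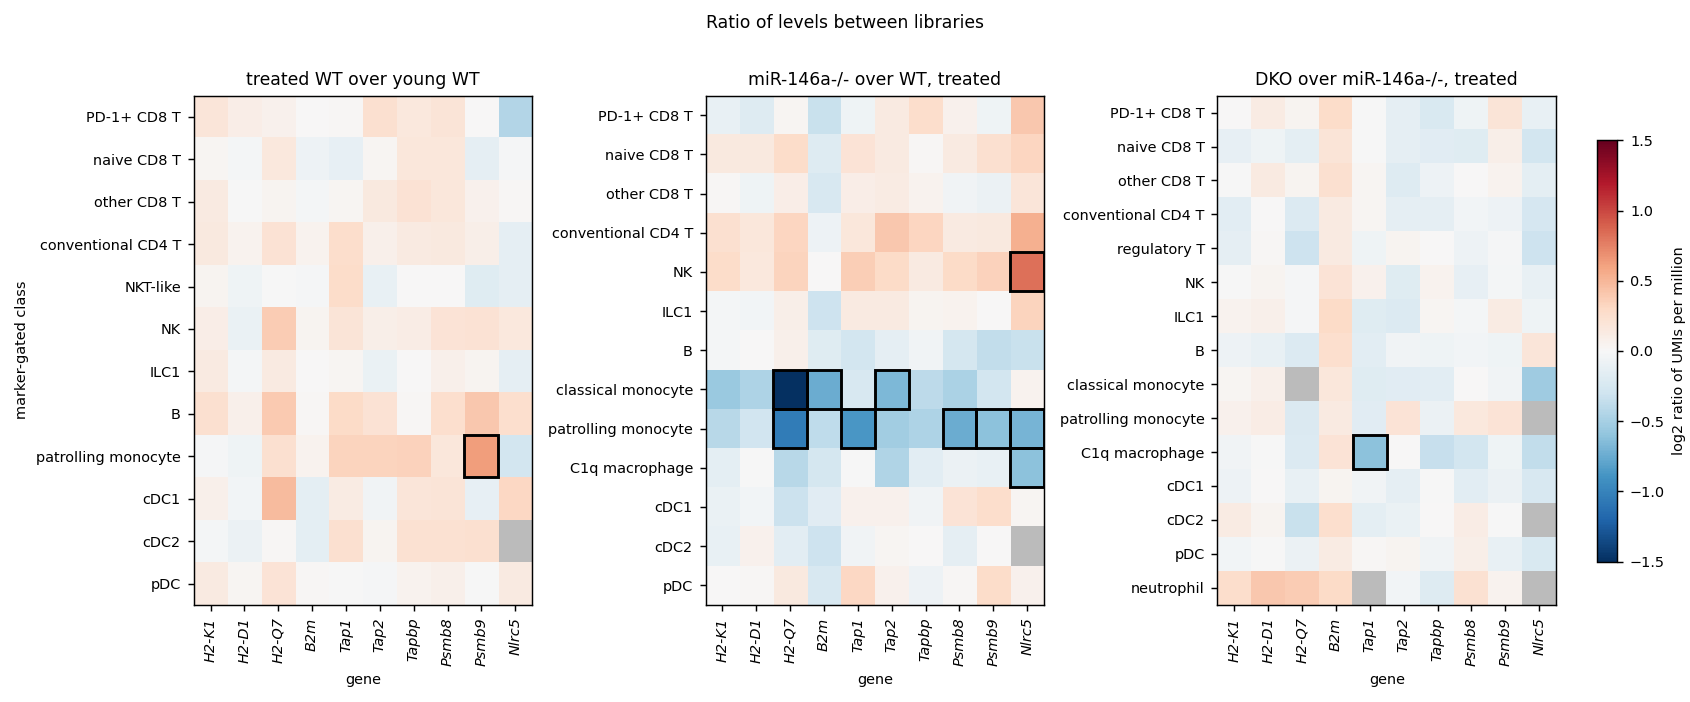
Log2 ratio of each gene in each class for the 3 comparisons; colour gives the ratio, boxed fields passed 1.5-fold and grey fields were not tested. In the comparison of miR-146a-/- with WT, the lower calls lie in the monocyte and macrophage classes and the higher call, Nlrc5, in NK cells.

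In patrolling monocytes, the blood monocytes that crawl along vessel walls, all 10 genes were lower in DEN-CDHFD miR-146a-/- than in DEN-CDHFD WT, with a median log2 ratio of -0.57. The sign was the same for all 10 when ratios were scaled to the median of all genes, by TMM factors, or to a total without Ccl5, mitochondrial and ribosomal protein genes. H2-Q7 stood at 166 CPM in young WT (exact 95% Poisson interval 134 to 204), 197 in DEN-CDHFD WT (172 to 225), 94.7 in DEN-CDHFD miR-146a-/- (86.6 to 103) and 81.5 in DEN-CDHFD DKO (75.3 to 88.0). Both libraries without miR-146a were thus below both wild-type libraries, with no overlap of counting intervals, and the log2 ratio of miR-146a-/- to WT was -1.05 (-1.29 to -0.82).

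Psmb8 was 567 CPM in young WT, 636 in DEN-CDHFD WT, 381 in DEN-CDHFD miR-146a-/- and 427 in DEN-CDHFD DKO, with a log2 ratio of miR-146a-/- to WT of -0.74 (-0.86 to -0.61). Tap1 was 109, 137, 74.8 and 66.4 CPM in the same order, and its ratio was -0.87 (-1.15 to -0.59). For both genes the 2 wild-type libraries were again the higher ones. Nlrc5 was 69.7, 57.8, 35.4 and 31.9 CPM, with a ratio of -0.70 (-1.12 to -0.27), and of -1.33 after thinning every cell to 2000 UMIs, where it was too low to be tested, -1.06 as a mean over cells and -1.03 without the 10% of cells with the most UMIs. Psmb9 was 145, 225, 147 and 168 CPM, with a ratio of -0.62 (-0.82 to -0.40). Psmb9 was the exception to the order, since young WT was level with miR-146a-/- and only DEN-CDHFD WT stood higher. Its ratio was -0.52 when no UMI of an excluded lineage was allowed and -0.55 with TMM factors, short of the limit.

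The remaining 5 genes did not pass 1.5-fold in patrolling monocytes, except that Tap2 passed it under 2 of the settings, at -0.60 when no UMI of an excluded lineage was allowed and at -0.67 in cells with a UMI of Cd300e or Spn. H2-K1 was 1938, 1917, 1433 and 1496 CPM and H2-D1 was 3760, 3603, 2947 and 3183 CPM in young WT, DEN-CDHFD WT, DEN-CDHFD miR-146a-/- and DEN-CDHFD DKO. B2m was 3601, 3719, 2857 and 3158 CPM. The log2 ratios of miR-146a-/- to WT were -0.42 for H2-K1, -0.29 for H2-D1, -0.38 for B2m, -0.52 for Tap2 and -0.46 for Tapbp. In this class 9.95% of 3498 genes were called lower and 7.75% higher, more than over all classes together.

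The patrolling class differed between the libraries in more than these genes. It held 68, 101, 557 and 844 cells in the 4 libraries, with median UMIs per cell of 7130, 10454, 7626 and 7618. Cd300e, a patrolling marker outside the gate, was 261, 73.1, 254 and 251 CPM, and Spn 286, 183, 374 and 321 CPM, so the DEN-CDHFD WT cells were low in both. F13a1, a classical monocyte marker, was 16.1, 58.7, 25.3 and 32.8 CPM. A UMI of Cd300e or Spn was found in 91.2%, 67.3%, 90.7% and 93.5% of the cells. When only these cells were kept, a choice made after the data had been seen, the ratios of miR-146a-/- to WT were as large or larger, at -1.29 for H2-Q7, -1.15 for Tap1, -0.99 for Nlrc5, -0.78 for Psmb8 and -0.62 for Psmb9, and Tap2 passed the limit too, at 96.7 CPM in WT and 60.8 CPM in miR-146a-/-.

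Markers of other cells were summed in the patrolling class for each library in the order young WT, DEN-CDHFD WT, DEN-CDHFD miR-146a-/- and DEN-CDHFD DKO. The 3 T-cell markers were at 25.0, 12.6, 7.27 and 7.44 CPM with none at 0, and the 4 B-cell markers at 26.8, 23.5, 18.2 and 17.9 CPM, mostly Cd79b. The 3 hepatocyte markers were at 14.3, 15.3, 7.66 and 10.9 CPM, mostly Alb, and the 3 plasma cell markers at 1.79, 5.42, 30.1 and 13.9 CPM, with Sdc1 the most abundant in the miR-146a-/- and DKO libraries. The 2 erythroid markers were at 0, 1276, 1.34 and 2.40 CPM, nearly all Hbb-bs of 1 cell in DEN-CDHFD WT. The NK and ILC1, endothelial and stellate lists were each at 9.03 CPM or less, and both platelet markers were at 0 in every library. Their part in the result was not tested.

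**Figure D4:**
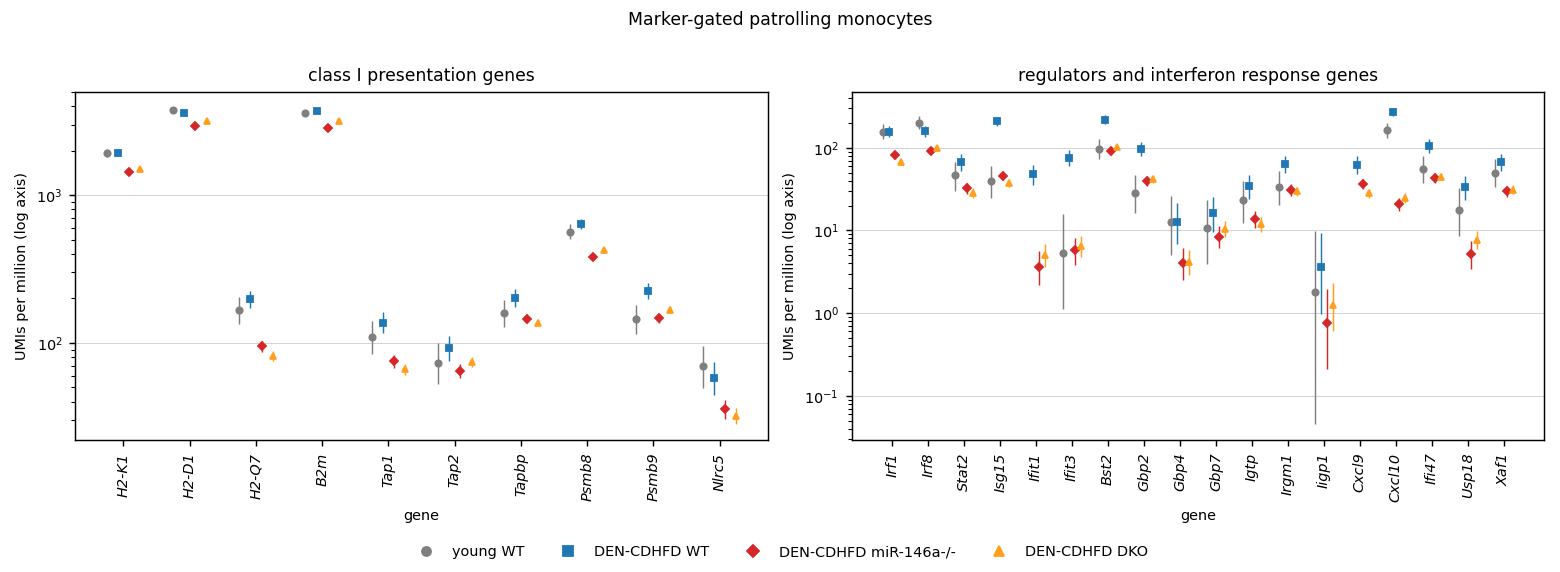
Levels in patrolling monocytes (CPM, log axis) of the 10 genes, and of regulators and interferon response genes, in the 4 libraries, with exact 95% Poisson intervals for counting error; levels of 0 (Ifit1 and Cxcl9 in young WT) are not drawn. H2-Q7 is 166 and 197 CPM in the wild-type libraries and 94.7 and 81.5 CPM in those without miR-146a, whereas Isg15 is high only in DEN-CDHFD WT.

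Interferon response genes were lower in the same class. All 9 of the 15 that could be tested were called lower in miR-146a-/- than in WT, with a median log2 ratio of -1.28. Isg15, a ubiquitin-like modifier, was 39.3, 209, 45.9 and 37.3 CPM in the 4 libraries, and Ifit3 was 5.36, 75.8, 5.74 and 6.43 CPM. Of 9 interferon response genes tested against young WT, 8 were called higher in DEN-CDHFD WT and 0 lower. Isg15 and Ifit3 were high in DEN-CDHFD WT alone, unlike H2-Q7, Psmb8, Tap1 and Nlrc5, which were also high in young WT. Of 12 regulators tested, 4 were called lower in miR-146a-/- than in WT and 0 higher, with a median of -0.41. Among them Irf1, an activator of class I genes, was 157, 156, 81.5 and 68.0 CPM, so that both wild-type libraries stood above both libraries without miR-146a. Of the further class I genes, 8 of 12 tested were called lower, among them H2-Q6 at -1.49, the proteasome activators Psme1 at -0.72 and Psme2 at -0.69, and H2-T23 at -0.65. Of the 10 constitutive proteasome subunits, Psma4 at -0.88 and Psma5 at -0.59 were called lower.

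In classical monocytes, the inflammatory Ly6c2-high monocytes, the comparison rested on 52 cells in DEN-CDHFD WT and 115 in DEN-CDHFD miR-146a-/-. H2-Q7 was 119 CPM in WT (exact 95% Poisson interval 94.3 to 149) and 42.4 CPM in miR-146a-/- (34.1 to 52.1), a log2 ratio of -1.49 (-1.95 to -1.04). B2m was 3088 and 1841 CPM, a ratio of -0.75, and Tap2 was 130 and 81.5 CPM, a ratio of -0.67. These 3 genes fell, and 9 of the 10 had a ratio below 0, with a median of -0.47; in this class 12.6% of 3552 genes were called lower. The class fell under 50 cells when gate minimums were raised by 1 UMI, when no UMI of an excluded lineage was allowed, or without the 10% of cells with the most UMIs, and as a mean over cells the ratio of Tap2 was -0.57 and that of H2-Q7 -0.59, at the edge of the limit, against -1.78 for H2-Q7 after thinning to 2000 UMIs, where both genes were too low to be tested. Of 10 interferon response genes tested, 9 were called lower, with Isg15 at 134 CPM in miR-146a-/- and 504 CPM in WT. The cells of this class had median UMIs of 12586 in WT and 19188 in miR-146a-/-. Monocyte markers outside the gate differed too: F13a1 was 498 and 930 CPM, Chil3 788 and 1305 CPM, and of the patrolling markers Ear2 was 110 and 41.9 CPM, Spn 15.5 and 56.1 CPM, Nr4a1 718 and 463 CPM and Cd300e 0 and 3.77 CPM. Hepatocyte markers were at 41.9 CPM in WT and 7.54 CPM in miR-146a-/-, mostly Alb with none of the 3 at 0, and B-cell markers, mostly Cd79b, at 24.8 and 12.7 CPM (1 and 2 of 4 at 0). Plasma cell markers were at 7.76 and 1.41 CPM (1 of 3 at 0 in both), NK and ILC1 markers at 6.20 and 0.943 CPM (0 and 1 of 2 at 0), endothelial markers at 6.20 and 0.943 CPM (1 of 3 at 0 in both) and T-cell markers at 9.31 and 11.3 CPM (none of 3 at 0). The erythroid, platelet, stellate, and basophil and mast cell lists were each at 3.10 CPM or less. The part of depth and of these markers in the result was not tested.

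In C1q macrophages, Nlrc5 was 81.2 CPM in DEN-CDHFD WT (67.7 to 96.7) and 53.2 CPM in DEN-CDHFD miR-146a-/- (41.3 to 67.4), a log2 ratio of -0.61 (-1.06 to -0.18). In this class 8.89% of 3420 genes were called lower, so 1 of 10 members was near the share of all genes. The ratio varied with the settings: it was -0.58 under 4 of them and -0.43 when no UMI of an excluded lineage was allowed, short of the limit, but -0.72 without the 10% of cells with the most UMIs, -0.91 after thinning to 2000 UMIs and -1.05 as a mean over cells, where H2-Q7 also passed the limit at -0.65. Of the interferon response genes, 0 of 10 tested were called, whereas 2 of 10 constitutive proteasome genes were called lower, Psmb7 at -0.76 and Psma1 at -0.62, with a list median of -0.33. The class itself differed between the libraries. From WT to miR-146a-/-, the patrolling markers Cd300e and Spn were at 9.60 and 85.3 CPM and at 23.7 and 71.2 CPM, Ear2 and Nr4a1 at 214 and 122 CPM and at 466 and 240 CPM, and the macrophage marker Cd5l at 180 and 8.60 CPM. In the 92 and 42 cells without a UMI of Cd300e or Spn, a choice made after the data had been seen that leaves too few cells for a call, Nlrc5 was 95.5 CPM (78.1 to 116) and 52.5 CPM (35.4 to 74.9), a ratio of -0.85. In the 30 and 53 cells with one it was 47.4 CPM (29.7 to 71.8) and 53.8 CPM (38.1 to 73.8). From WT to miR-146a-/-, platelet markers, mostly Pf4, were at 40.9 and 18.0 CPM (1 and 0 of 2 at 0), T-cell markers at 17.9 and 10.2 CPM (none of 3 at 0), with Cd3d and Cd3e the most abundant, and hepatocyte markers, mostly Alb, at 27.5 and 18.8 CPM (none of 3 at 0). Plasma cell markers were at 16.6 and 11.0 CPM (0 and 1 of 3 at 0). Endothelial markers went the other way, at 7.68 and 14.1 CPM (none of 3 at 0), with Kdr the most abundant. B-cell markers were at 24.3 and 28.9 CPM (1 and 2 of 4 at 0). The part of these other markers in the result was not tested.

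In NK cells, which lyse cells that lack class I, Nlrc5 was 66.0 CPM in young WT (59.4 to 73.2), 73.6 in DEN-CDHFD WT (66.1 to 81.7), 131 in DEN-CDHFD miR-146a-/- (119 to 143) and 121 in DEN-CDHFD DKO (111 to 131). In this class 1.92% of 3597 genes were called higher. The log2 ratio of miR-146a-/- to WT was 0.83 (0.63 to 1.03), and both libraries without miR-146a were above both wild-type libraries with no overlap of counting intervals. None of the 10 genes had a ratio below 0, although B2m, at 0.00, fell just below under median scaling and TMM factors; the median was 0.29. H2-Q7 was 703, 917, 1149 and 1131 CPM in the 4 libraries, Psmb9 was 204, 237, 301 and 294 CPM, and Tap1 was 112, 127, 164 and 171 CPM. These levels were higher in both libraries without miR-146a, but their ratios of 0.33, 0.34 and 0.37 did not pass 1.5-fold. Of the interferon response genes Isg15 rose at 0.71 while Ifi47 fell by 1.08 on the log2 scale. Ifng, the gene for interferon gamma, was 423, 335, 161 and 156 CPM, a ratio of -1.06. Nr4a1, an immediate-early gene, split the libraries of this class the same way but in the opposite direction, at 917, 1030, 198 and 188 CPM. That split was not particular to NK cells. Nr4a1 was 181, 200, 45.4 and 48.6 CPM in ILC1 and 376, 277, 113 and 125 CPM in B cells. Patrolling monocytes did not show it, at 1436, 1017, 1032 and 976 CPM. In the NK class T-cell markers, mostly Cd3g, were at 28.0, 32.0, 41.6 and 31.7 CPM and myeloid markers, mostly Lyz2, at 13.4, 22.4, 16.0 and 15.5 CPM, with none at 0. Plasma cell markers, mostly Jchain (1, 1, 2 and 0 of 3 at 0), were at 9.38, 4.18, 0.551 and 5.67 CPM. Erythroid markers were at 390, 0.836, 0.276 and 1.47 CPM, in young WT nearly all from 1 cell. The part of Nr4a1 and of these markers in the result was not tested.

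In PD-1+ CD8 T cells, the largest class of treated mice, none of the 10 genes passed 1.5-fold. Nlrc5 was 222, 163, 217 and 202 CPM in young WT, DEN-CDHFD WT, DEN-CDHFD miR-146a-/- and DEN-CDHFD DKO, so that DEN-CDHFD WT was lowest. B2m was 3477, 3481, 2769 and 3352 CPM, and there the miR-146a-/- library was lowest.

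Conventional CD4 T cells had a median log2 ratio of miR-146a-/- to WT of 0.21 over the 10 genes, and Nlrc5 at 0.53 came closest to the limit there. Naive CD8 T cells had a median of 0.15. In B cells the median was -0.16 and 9 of 10 genes had a ratio below 0, or 8 of 10 under median scaling and under the total without Ccl5, mitochondrial and ribosomal protein genes. The median was 0.05 in ILC1, 0.04 in other CD8 T cells, 0.04 in pDC and 0.00 in cDC1, and -0.05 over the 9 genes tested in cDC2. Outside the NK, monocyte and macrophage classes, none of the 10 genes passed 1.5-fold in this comparison as reported. Under other settings, calls appeared in 2 of these classes. In conventional CD4 T cells Nlrc5 passed at 0.78 with raised gate minimums, 0.77 when no UMI of an excluded lineage was allowed, 0.59 with TMM factors and 0.71 after thinning, Tapbp at 0.66 when no such UMI was allowed, and Tap2 at 0.64 after thinning. In cDC2, after thinning, Tap1 passed at 0.78 and Tapbp at -0.65.

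Seen by gene, H2-K1 ranged from -0.56 in classical monocytes to 0.27 in NK cells and H2-D1 from -0.46 in classical monocytes to 0.17 in conventional CD4 T cells. Tapbp ranged from -0.46 in patrolling monocytes to 0.32 in conventional CD4 T cells. These 3 genes passed 1.5-fold in none of the 13 classes, apart from Tapbp in conventional CD4 T cells and cDC2 under the settings just given and in classical monocytes after thinning, at -0.81, and for each of them the lowest ratio lay in a monocyte class.

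Low B2m in the miR-146a-/- library extended over classes. Its log2 ratio of miR-146a-/- to WT was below 0 in 12 of 13 classes, with a median of -0.24, and in 13 of 13 under median scaling and TMM factors. A single class, the classical monocytes, passed 1.5-fold. All of these classes come from the same pair of libraries and are not separate samples.

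Over the 13 classes the interferon response list had 38 pairs lower and 5 higher of 108 tested, that is 35.2% lower, with a median of -0.30. Ifi47, an interferon-induced GTPase, was called lower in PD-1+ CD8 T cells (278 to 120 CPM), B cells (99.3 to 36.6 CPM) and ILC1 (304 to 123 CPM) among others. In these 3 classes none of the 10 class I genes passed 1.5-fold. The regulators had 11 pairs lower and 2 higher of 144, the further class I genes 13 lower and 2 higher of 171, the constitutive proteasome 4 lower and 0 higher of 130, and the interferon genes 4 lower and 0 higher of 6.

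Mice that lacked Ccl5 as well were compared with miR-146a-/- mice, both treated, in 15 classes. This comparison shares the miR-146a-/- library with the previous one, which shares the DEN-CDHFD WT library with the comparison of wild-type mice. Of 150 pairs, 145 could be tested, and H2-Q7 in classical monocytes, Nlrc5 in patrolling monocytes, cDC2 and neutrophils, and Tap1 in neutrophils could not. None was called higher and 1 lower, with a median log2 ratio of -0.03; over all genes 2.15% of 50729 pairs were called higher and 1.59% lower, with a median of 0.00.

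The called pair was Tap1 in C1q macrophages, at 112 CPM in young WT, 155 in DEN-CDHFD WT, 154 in DEN-CDHFD miR-146a-/- (133 to 177) and 101 in DEN-CDHFD DKO (90.9 to 112). The log2 ratio of DKO to miR-146a-/- was -0.61 (-0.86 to -0.35), in a class where 3.28% of 3356 genes were called lower. Young WT held only 35 cells of this class. Stat2, a transducer of type I interferon signals, fell from 72.0 to 43.9 CPM in the same class, and 8 of 10 interferon response genes were called lower while Cxcl9 rose from 65.7 to 162 CPM. Patrolling markers differed as well, with Cd300e rising from 85.3 to 235 CPM between miR-146a-/- and DKO, Spn at 71.2 and 113 CPM, Ear2 at 122 and 254 CPM and Nr4a1 at 240 and 348 CPM, and the macrophage marker Cd5l was at 8.60 and 94.9 CPM. Cells without a UMI of Cd300e or Spn made up 44.2% and 28.8% of the class. In these 42 and 83 cells, too few for a call, Tap1 was 199 CPM (164 to 240) and 134 CPM (113 to 157), a ratio of -0.58 (-0.94 to -0.21), and in the 53 and 205 cells with such a UMI it was lower in both libraries, at 117 CPM (93.5 to 146) and 86.2 CPM (74.9 to 98.7). B-cell markers, mostly Cd79b and 2 of 4 at 0 in both libraries, had summed levels of 28.9 and then 69.5 CPM, and plasma cell markers, 1 of 3 at 0 in both, of 11.0 and then 41.7 CPM. The part of these other markers in the result was not tested.

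In patrolling monocytes and NK cells the DKO levels given above lay near those of miR-146a-/-: the median log2 ratio was 0.11 over 9 genes tested in patrolling monocytes and -0.01 over 10 in NK cells. B2m had a ratio above 0 in 15 of 15 classes under all 4 scalings, with medians of 0.19 to 0.20, and passed 1.5-fold in none. Scaled to all UMIs, its median was 0.20 and its highest value 0.29. Nlrc5 was below 0 in 11 of 12 classes tested, the exception being B cells, with a median of -0.23. In B cells the median over all genes was itself -0.16, and the ratio of 0.25 for B2m and of 0.18 for Nlrc5 there stand against that shift. The direction of the 10 genes in B cells depended on the scaling. Scaled to all UMIs, 8 were below 0, with a median of -0.07. Likewise 8 were below 0 under the total without Ccl5, mitochondrial and ribosomal protein genes (-0.09). Under median scaling 8 were above 0 (median 0.09), and with TMM factors 9 (0.11). Plasma cell markers in the B class, mostly Jchain with none of 3 at 0, were at 4965, 2490, 2666 and 10655 CPM in young WT, DEN-CDHFD WT, DEN-CDHFD miR-146a-/- and DEN-CDHFD DKO, and their part in the result was not tested. Of the lists, interferon response genes had 20 pairs lower and 7 higher of 98, the further class I genes 1 lower and 3 higher of 193, the regulators 5 lower and 1 higher of 159, the constitutive proteasome 0 lower and 1 higher of 148, and the interferon genes 2 lower and 0 higher of 6.

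Genes with the most similar levels were sought over 42 points of class and library with at least 100 cells, in 14 classes, among 6354 genes. These points share classes and libraries, so the correlations only describe them. H2-Q7 was closest to H2-Q4 (Pearson r of log2 CPM 0.98) and to H2-Q6 (0.96), which shares transcript stretches with it, H2-K1 to H2-Q4 (0.95), and Tap1 to Psmb8 (0.89) and Psmb9 (0.86). H2-D1 was closest to Tmem127 (0.87), Tap2 to Nsmaf (0.92), Tapbp to H2-T23 (0.86) and Psmb8 to Psme1 (0.89). Nlrc5 was closest to Gm12216 (0.94) and B2m to Plgrkt (0.87). After the mean of each class over the libraries had been taken away, leaving 40 points in 12 classes, the closest genes were mostly other genes of the pathway: Tap1 for H2-Q7 (0.90), H2-T23 for H2-K1 (0.89) and H2-D1 (0.79), Psme2 for Psmb8 (0.89), Tapbp for Tap2 (0.83), and Tap1 for Psmb9 (0.82) and Nlrc5 (0.80). H2-Q7 and H2-K1 stood at 0.88 and H2-D1 and H2-K1 at 0.74. B2m was the exception, with Glipr1 (0.77), Cd83 (0.72) and Clec12a (0.70) as its closest genes.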

How the data were processed

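The authors sorted CD45+ liver cells, prepared 10x 5′ libraries and deposited UMI counts that were not normalized, made with Cell Ranger (7.0.1 per the file headers) on the mm10 reference; the study's methods name an earlier version. Newer versions count intronic reads by default and older ones do not, and whether they were counted here is not given in the sources used here. Cells with 600 to 6000 detected genes and at most 5% mitochondrial UMIs were kept. No doublet caller was run: doublets were limited by the upper gene limit, by exclusion of cells with more than 2 UMIs of another lineage's markers and of cells that passed several gates, and by an alternative without the 10% of cells with the most UMIs. Between 96 and 127 cell barcodes were shared by any pair of libraries (1.04% to 1.52% of a library), and these cells were kept.

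Gate minimums were set on marker UMIs and class sizes before levels of the 10 genes were computed; the Ly6c2 minimum of classical monocytes was lowered to 3 UMIs after class sizes had been seen, which brought the class to 52 cells in DEN-CDHFD WT. UMIs were summed per class and library and scaled to CPM, with exact 95% Poisson intervals. Log2 ratios used a prior of 0.5 counts. Genes with 50 CPM and 20 UMIs in 1 of the 2 libraries were compared in classes with 50 cells in both, and called past 1.5-fold. With 1 library per condition no test was run, and all intervals cover counting error only. Shares have exact Clopper-Pearson intervals.

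Named genes were the 10 members, fixed lists of further class I genes, constitutive proteasome subunits, regulators, interferon response genes and interferon genes, Ccl5, and for each member the 3 genes with the highest Pearson correlation; values of 1 listed gene are not reported here. Members and lists were chosen with earlier results of these data known. Motif letters were chosen after the promoters had been read; transcript stretches of 50 bases were compared within a GENCODE mouse annotation, which may differ from the one used for counting. The ratio step was checked on simulated counts with counting error only. That check does not cover variation between cells, mice or libraries. Alternatives covered cell filters, gates, scaling (median ratio, TMM factors, a total without Ccl5, mitochondrial and ribosomal protein genes), thinning to 2000 UMIs, prior, expression minimum and fold. Python 3.11.15, numpy 2.4.6, scipy 1.17.1, pandas 2.3.3, matplotlib 3.10.9, R 4.3.3 and edgeR 4.0.16 (TMM factors only) were used.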

Additional observations from a re-analysis of the deposited data

Results flagged for a closer look

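Nlrc5 stood out because its ratio of miR-146a-/- to WT in treated mice pointed in opposite directions in different classes, each past 1.5-fold. The log2 ratio was 0.83 in NK cells, -0.70 in patrolling monocytes and -0.61 in C1q macrophages. The ratio in C1q macrophages fell short of 1.5-fold under several settings. In the cells of that class with a UMI of Cd300e or Spn, Nlrc5 was 47.4 CPM in WT and 53.8 CPM in miR-146a-/-. In those without one it was 95.5 and 52.5 CPM. Opposite signs in NK cells and patrolling monocytes were not particular to Nlrc5. The ratios in NK cells and patrolling monocytes were 0.33 and -1.05 for H2-Q7 and 0.37 and -0.87 for Tap1. They were 0.29 and -0.74 for Psmb8 and 0.34 and -0.62 for Psmb9. In NK cells these genes did not pass 1.5-fold. The difference between the classes was not tested, and each ratio compares 1 library with 1 other.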

How the results depend on the processing

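No called pair changed sign under any of the 17 settings in which it could be computed, and the median log2 ratio of the members stayed at 0.06 to 0.09 (treated and young WT), -0.03 to 0.05 (miR-146a-/- and WT) and -0.04 to -0.01 (DKO and miR-146a-/-); 134 results were unchanged, 32 moved and 0 reversed. Counts of called pairs were small, so that 1 pair moves them; the cause of each move was not tested. Young and treated WT: the 1 higher pair became 0 with no UMI of an excluded lineage, without the 10% of cells with the most UMIs, with a fold of 2, with patrolling monocytes restricted to cells with a UMI of Cd300e or Spn, and in classes with 100 cells, and 2 after thinning to 2000 UMIs, where 1 lower pair also appeared. miR-146a-/- and WT: the 1 higher pair became 2 with gate minimums raised by 1 UMI, 3 with no UMI of an excluded lineage, 2 with TMM factors, 4 after thinning and 0 with a fold of 2; the 9 lower pairs became 5 with raised gates, 5 with no UMI of an excluded lineage, 6 without the 10% of cells with the most UMIs (classical monocytes drop out of these 3), 6 without classical monocytes, 2 with a fold of 2 and 5 in classes with 100 cells. They became 8 under median scaling, under the total without Ccl5, mitochondrial and ribosomal protein genes and with a prior of 5 counts (each without Nlrc5 in C1q macrophages), 8 with TMM factors (without Psmb9 in patrolling monocytes), 8 after thinning, 8 with C1q macrophages limited to cells without a UMI of Cd300e or Spn, and 10 with Cd300e or Spn (with Tap2). DKO and miR-146a-/-: the 0 higher pairs became 1 without the 10% of cells with the most UMIs and 3 after thinning; the 1 lower pair became 2 with raised gates, 2 after thinning, 0 with a fold of 2, 0 in classes with 100 cells and 0 with C1q macrophages so limited (the class falls under 50 cells). Of 580 levels, 38 left their interval with raised gates, 47 with no UMI of an excluded lineage, 158 without the top 10% of cells, 287 after thinning, by up to 2.26-fold, and 142 as a mean over cells, and 0 left it under a mitochondrial limit of 10% or a minimum of 200 features. Thinning left out 667, 540, 358 and 406 shallower cells in young WT, DEN-CDHFD WT, DEN-CDHFD miR-146a-/- and DEN-CDHFD DKO. The settings on Cd300e or Spn, on 100 cells and without classical monocytes were chosen after seeing the data. No paired analysis was possible because each condition is 1 library.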
